A study of Mus musculus with 4 samples.

Results

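Aerocytes are capillary endothelial cells (ECs) of the lung, and the 8 genes examined here, Car4, Tbx2, Fibin, Prx, Emp2, Chst1, Kitl and Rprml, are used to tell them from the other capillary ECs. The genes were chosen by symbol, as known aerocyte markers, out of 24063 gene symbols in the count tables, and where a symbol had several transcripts, the one with most counts in all was used. All 8 were tested, and they held between 278 and 86905 raw counts in a library. RNA came from CD31-selected lung cells of C57BL6J mice (C57BL6 in the sample labels), 8 weeks old, taken 7 days after pneumonectomy (PNX, removal of the left lung) or from sham-operated mice, whose chest was opened without removal of lung. Each group had 2 libraries, and the cells of 2 mice were pooled in each library, so a library is a pool and not a mouse. The labels name no transgene and no agent in either group.

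The alveolar capillary net is built by aerocytes and by general capillary cells. Aerocytes are large, thin cells that lie against alveolar type 1 epithelium and form much of the surface for gas exchange. General capillary cells are smaller, can divide and are known to give rise to new capillary cells after injury. The pair of cell types is linked by signals, since aerocytes make the KIT ligand and apelin while general capillary cells carry KIT and the apelin receptor.

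With one transcript taken per gene, the libraries held between 41367438 and 50952879 counts, so 3 counts, the lowest level taken as detectable, correspond to between 0.0589 and 0.0725 CPM, the unit that scales counts to the total of a library. This floor covers counting error only. Values below are counts normalized with the TMM method and scaled to the mean library size, unless another scale is named. Libraries of a group differed by a median SD of 0.036 on the log2 scale. Their mean chi-square per gene was 1.74 in sham and 1.51 after PNX, where counting error alone gives 1, against 114 to 128 between libraries of different groups. The p-values below measure only the spread between these libraries, which may be technical in part. The mice were labelled as male by the study, but none of 44 chromosome Y genes had a count in any library and Xist, the RNA of the inactive X chromosome, had at least 31872 normalized counts in each. This held for every library of both groups. Pecam1, which encodes the CD31 used for the selection, had 596 CPM per kilobase of transcript in sham libraries, and Cdh5, which encodes VE-cadherin, had 599. The surfactant gene Sftpc of alveolar type 2 cells stood at 4615 on the same scale, so the selected fraction held epithelial RNA as well. In bulk RNA, fewer cells of a type and less RNA per cell cannot be told apart.

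The 8 markers did not move together. After PNX, Car4, Tbx2 and Prx rose, Fibin, Emp2, Chst1 and Kitl fell, and Rprml did not pass the test. The rises lay between 9.39% and 17.9%, and Fibin and Emp2 had the largest falls of the list, by 30.9% and 30.5%. A gene was called when the adjusted p of edgeR's quasi-likelihood test lay under 0.01. By this rule 3 members were higher and 4 lower, against 29.3% higher and 27.8% lower among the 16208 genes tested (57.1% called in either direction). No member passed the study's stricter rule, which also asks for a log2 fold change beyond 1, against 7.56% of all genes tested (5.9% higher and 1.66% lower). The median log2 fold change of the members was -0.04, that of all genes tested 0.0012.

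Car4 encodes carbonic anhydrase 4, an enzyme anchored on the outer face of the capillary wall that converts carbon dioxide and bicarbonate into each other. It lies on chromosome 11 from 84957754 to 84966054, and its transcript has 8 exons. Sham libraries held 20510 and 20226 normalized counts of Car4, and PNX libraries held 23779 and 24259. Both PNX libraries were above both sham libraries. The sham mean was 20368 ± 201 (SD, n = 2) and the PNX mean 24019 ± 339 (SD, n = 2). This made a log2 fold change (PNX over sham) of 0.24 with an SE of 0.019, and edgeR gave an adjusted p of 1.8e-17.

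Tbx2 encodes a T-box transcription factor that acts mostly as a repressor. It lies on chromosome 11 as well, from 85832615 to 85841948. Sham libraries had 14024 and 14919 normalized counts of Tbx2, and PNX libraries had 16057 and 16580. The groups did not overlap, although the sham libraries lay further apart than the PNX libraries. For Tbx2 the log2 fold change was 0.17 with an SE of 0.022 (adjusted p of 2.8e-10 by edgeR), and it was between 0.13 and 0.22 when 1 library at a time was left out.

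Prx encodes periaxin, a scaffold protein first known from the myelin sheath of Schwann cells. On chromosome 7 from 27499305 to 27520041 it is covered on the opposite strand, over 5405 bases, by the antisense gene Gm15541. The library kit kept strand, but the strand setting of the counting is not given in the sources used here. Prx had 32610 and 32797 normalized counts in sham libraries and 35454 and 36099 in PNX libraries, with no overlap. For Prx the log2 fold change was 0.13 with an SE of 0.018 (adjusted p of 2.4e-09 by edgeR), the smallest among the members that passed the test. The tables list 2 transcripts of Prx, NM_019412 for the short protein and NM_198048 for the long one. In the first sham library they held 35997 and 35698 raw counts and in the first PNX library 36080 and 35828. A read that overlaps both transcripts appears to have been counted for both, so these near-equal counts do not give the share of either form.

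Rprml encodes reprimo-like, a small protein related to the cell cycle inhibitor reprimo. Its single-exon gene lies on chromosome 11 from 103649509 to 103650580. Rprml had only 294 and 283 normalized counts in sham libraries and 303 and 320 in PNX libraries. The groups did not overlap, but its log2 fold change of 0.10 with an SE of 0.090 did not pass the test (adjusted p of 0.313 by edgeR). Rprml was the lowest member, and its SE was the widest of the 8. Groups without overlap were the rule in these data, as they were found in 8 of 8 members and in 81.2% of all genes tested.

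Emp2 encodes epithelial membrane protein 2, a tetraspan membrane protein of caveolae and integrin complexes. It lies on chromosome 16 from 10281749 to 10313968, in 5 exons. Sham libraries had 78729 and 79852 normalized counts of Emp2 against 55104 and 55098 in PNX libraries. The PNX libraries were nearly equal and both far under the sham libraries. The sham mean was 79290 ± 794 (SD, n = 2) and the PNX mean 55101 ± 4.66 (SD, n = 2). Emp2 thus had a log2 fold change of -0.53 with an SE of 0.016 (adjusted p of 1.9e-37 by edgeR). Emp2 is also a gene of alveolar type 1 epithelium, whose markers were present. Of 9 type 1 markers 7 fell and 2 rose (Pdpn and Igfbp2), with a median log2 fold change of -0.38, and their summed level went from between 3273 and 3294 CPM in sham libraries to between 2469 and 2473 CPM in PNX libraries. The ratio of Emp2 to Ager counts, Ager being the type 1 marker for the receptor RAGE, was 2.24 and 2.23 in sham and 2.04 and 2.01 in PNX libraries. The direction of such a ratio depends on the marker. Ager, Clic5 and Aqp5 fell less than Emp2, with log2 fold changes of -0.38, -0.35 and -0.30, and Cldn18 had -0.52. Rtkn2, Akap5 and Hopx fell more, with -0.99, -0.90 and -0.67. The part of type 1 RNA in the fall of Emp2 was not tested.

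Fibin encodes a secreted protein first described in fin bud development. The single-exon gene lies on chromosome 2 from 110360925 to 110362993. Fibin had 8329 and 7943 normalized counts in sham libraries and 5686 and 5569 in PNX libraries, far from overlap. The sham mean was 8136 ± 273 (SD, n = 2) and the PNX mean 5627 ± 82.5 (SD, n = 2). Fibin thus had a log2 fold change of -0.53 with an SE of 0.025 (adjusted p of 7.2e-28 by edgeR). PNX over sham was 0.691 in Fibin and 0.695 in Emp2, although their levels differ widely.

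Chst1 encodes a sulfotransferase that adds sulfate to galactose units of keratan sulfate. It lies on chromosome 2 from 92599632 to 92615252. Chst1 had 3077 and 3232 normalized counts in sham libraries and 2446 and 2544 in PNX libraries. Again both PNX values were under both sham values, and the log2 fold change was -0.34 with an SE of 0.033 (adjusted p of 1.1e-13 by edgeR).

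Kitl encodes the ligand of the receptor tyrosine kinase KIT. It lies on chromosome 10 from 100015615 to 100100416, the longest of the 8 genes. Kitl had 29542 and 27489 normalized counts in sham libraries and 25006 and 24971 in PNX libraries. The sham libraries were further apart than in any other member, with an SD of 5.09% of the mean, yet the groups did not overlap. Kitl had a log2 fold change of -0.19 with an SE of 0.020 (adjusted p of 1.7e-12 by edgeR), in a range from -0.24 to -0.14 when 1 library at a time was left out.

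**Figure D1:**
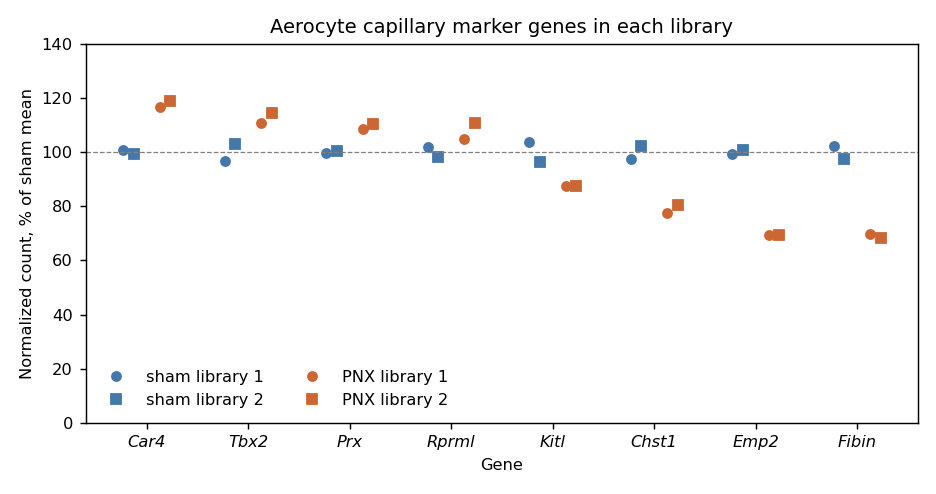
Normalized counts of the 8 aerocyte marker genes in each of the 4 libraries (circle, library 1; square, library 2), as percent of the sham mean of the gene (dashed line, 100%). Car4, Tbx2 and Prx lay above and Kitl, Chst1, Emp2 and Fibin below the sham libraries after PNX, with Fibin lowest at a fall of 30.9%.

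Levels of different genes were compared as CPM per kilobase of transcript. In sham libraries Emp2 was highest with 499 ± 5.16 (SD, n = 2), followed by Car4 with 339 ± 3.24 (SD, n = 2), Prx with 135 and Kitl with 113. Tbx2 with 88.0 ± 3.88 (SD, n = 2) and Fibin with 85.2 ± 2.83 (SD, n = 2) came next and their libraries overlapped, so these neighbours did not differ beyond their spread. Chst1 stood at 25.5 and Rprml at 5.84. After PNX the top of the order was exchanged. Car4 had 401 ± 4.93 (SD, n = 2) and Emp2 had 348 ± 0.674 (SD, n = 2) CPM per kilobase. Kitl with 99.6 and Tbx2 with 99.5 now overlapped, and Fibin, at 59.1 ± 0.976 (SD, n = 2), lay clearly under Tbx2. Such values depend on the transcript length behind them, which was taken from the deposited tables.

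**Figure D2:**
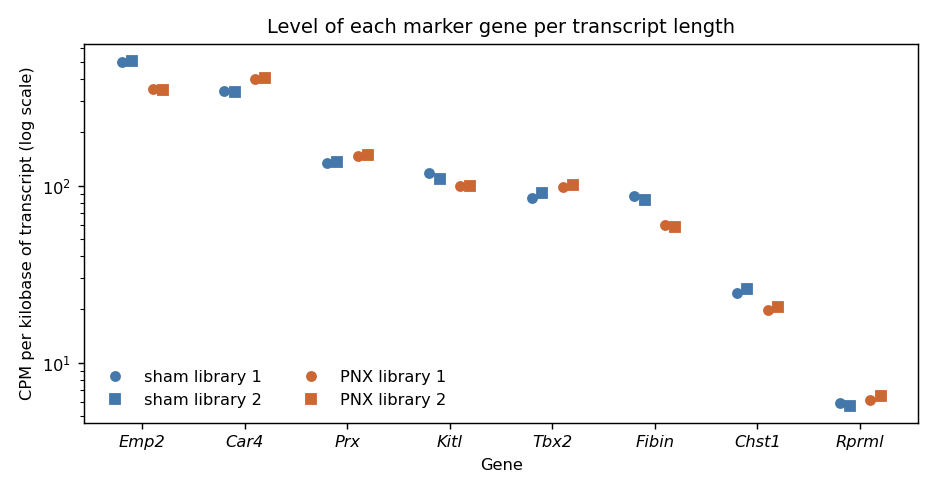
Level of each marker gene as CPM per kilobase of transcript on a log axis, for the sham (blue) and PNX (orange) libraries, with circles for library 1 and squares for library 2. Emp2 leads in sham at 499 and Car4 leads after PNX at 401, while Rprml is lowest in both groups.

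Ratios of genes within a library do not depend on how libraries are scaled. The pairs were chosen after their values were seen and are given without a test, since an exact two-sided permutation test of 2 against 2 libraries cannot go below p = 0.333. The count of Car4 relative to Emp2 was 0.261 and 0.253 in sham libraries and 0.432 and 0.440 in PNX libraries. Tbx2 relative to Emp2 went from 0.178 and 0.187 to 0.291 and 0.301. Since Car4 and Tbx2 rose and Emp2 fell, the choice of these pairs fixes the direction, and the ratios give only its size. Car4 relative to Kitl changed less, from 0.694 and 0.736 to 0.951 and 0.971. The ratio of the ligand gene Kitl to its receptor gene Kit was 1.28 and 1.19 in sham and 1.36 and 1.38 in PNX libraries. Apln, which encodes apelin, relative to its receptor gene Aplnr stood at 0.841 and 0.847 in sham and at 0.867 and 0.884 in PNX libraries. Under TMM both genes of each signal pair fell, with log2 fold changes of -0.34 in Kit, -0.40 in Apln and -0.45 in Aplnr, but Kitl turned on the endothelial scale described next.

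**Figure D3:**
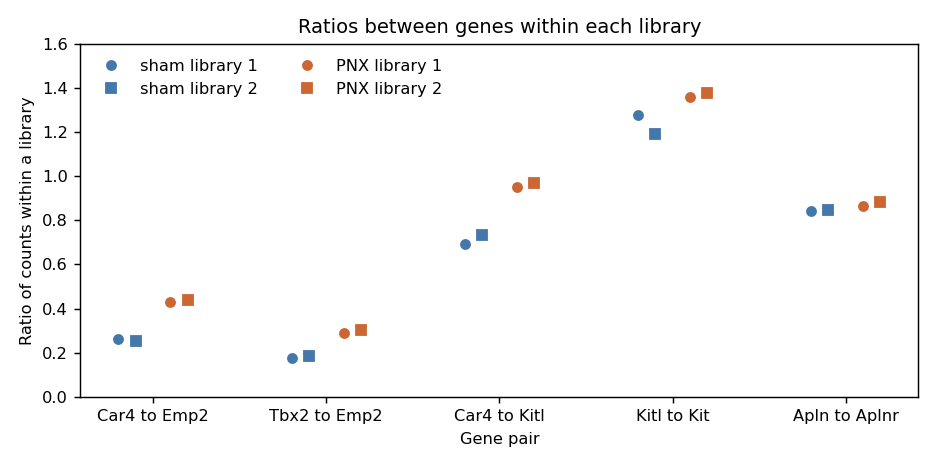
Ratios of raw counts of gene pairs within each library, with sham in blue, PNX in orange, circles for library 1 and squares for library 2. Car4 to Emp2 rises from 0.261 and 0.253 to 0.432 and 0.440, while Apln to Aplnr stays between 0.841 and 0.884.

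The direction of Kitl and the calls of Chst1 and Rprml depended on the reference. A set of 12 pan-endothelial genes had a median log2 fold change of -0.25 under TMM, with 10 lower and 1 higher. They did not fall alike, since Eng had -0.54, Tek -0.50, Cdh5 -0.22 and Tie1 -0.08. Pecam1 was not called, with -0.009, and Emcn rose with 0.11. When libraries were scaled to the sum of the 12 genes, the median of all genes tested moved to 0.25. On that scale Car4, Tbx2 and Prx rose with log2 fold changes of 0.49, 0.42 and 0.38, and Rprml passed the test with 0.35 (adjusted p of 0.00066 by edgeR). Emp2 and Fibin still fell, both with -0.28. Chst1 had -0.09 (adjusted p of 0.0181) and Kitl turned to 0.06 (adjusted p of 0.0272), both short of the threshold. Thus 4 members were higher and 2 lower relative to the pan-endothelial genes. On the same scale 10857 of the 16208 genes tested were called in either direction, more than under TMM. Their split into higher and lower is not given here, so the 4 and 2 members have no background share. The median of the members on this scale was 0.20, under the 0.25 of all genes tested. Relative to the shift in all genes, the members stood as under TMM. The medians of the marker lists below stayed under 0 on this scale for the other aerocyte genes (-0.15), the general capillary genes (-0.16), type 1 markers (-0.13) and type 2 markers (-0.38).

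**Figure D4:**
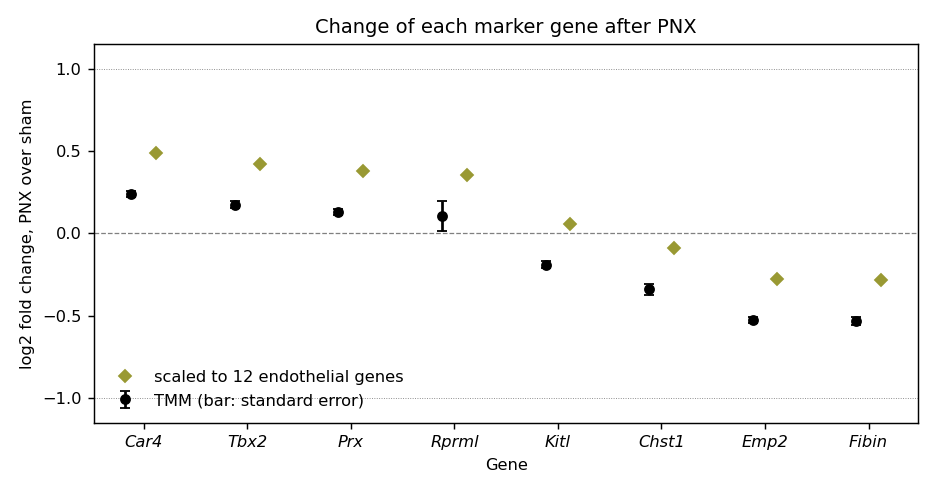
Log2 fold change (PNX over sham) of each marker gene under TMM (black circles, bars show the standard error) and with libraries scaled to 12 endothelial genes (diamonds). Dotted lines mark 1 and -1. Car4, Tbx2 and Prx are above 0 and Emp2 and Fibin below 0 on both scales, whereas Kitl is at -0.19 under TMM and 0.06 on the endothelial scale.

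Further aerocyte genes also went both ways. Of 8 such genes outside the list, 6 fell and 2 rose, with a median log2 fold change of -0.40. Ednrb, the gene of the endothelin B receptor and a defining aerocyte gene, fell with a log2 fold change of -0.58, having 14018 ± 298 normalized counts in sham and 9355 ± 47.1 in PNX libraries (SD, n = 2). Kdr, which encodes the main VEGF receptor of ECs, had -0.40, and Cdkn2b, a cell cycle inhibitor, had -0.39. Cyp4b1, a cytochrome P450 gene, fell most with -1.08. Igfbp7 and Sirpa rose with 0.29 and 0.24, close to Car4. The part of other cells of the fraction in the changes of these 8 genes was not tested.

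General capillary genes mostly fell. Of 11 tested, 9 were lower and 1 was higher, with a median of -0.41. Tek is in this list and also among the 12 pan-endothelial genes. Gpihbp1, which carries lipoprotein lipase to the capillary lumen, fell with a log2 fold change of -0.65, having 12182 ± 140 normalized counts in sham and 7793 ± 29.9 in PNX libraries (SD, n = 2), and Plvap, the gene of the diaphragm protein of fenestrae and caveolae, had -0.65 too. Ptprb, a phosphatase of the angiopoietin receptor, had -0.73. Sema3c was the gene that rose, with 0.21. The ratio of Car4 to Gpihbp1 counts was 1.67 in both sham libraries and 3.04 and 3.12 in the PNX libraries. Since Car4 rose and Gpihbp1 fell, the choice of this pair fixes the direction too. Other genes of the list moved less than Gpihbp1, such as Cd93 with -0.14 and Scn7a, not called, with 0.007. The ratio thus does not stand for the balance of the 2 cell types. On the pan-endothelial scale 3 general capillary genes were higher and 7 lower.

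**Figure D5:**
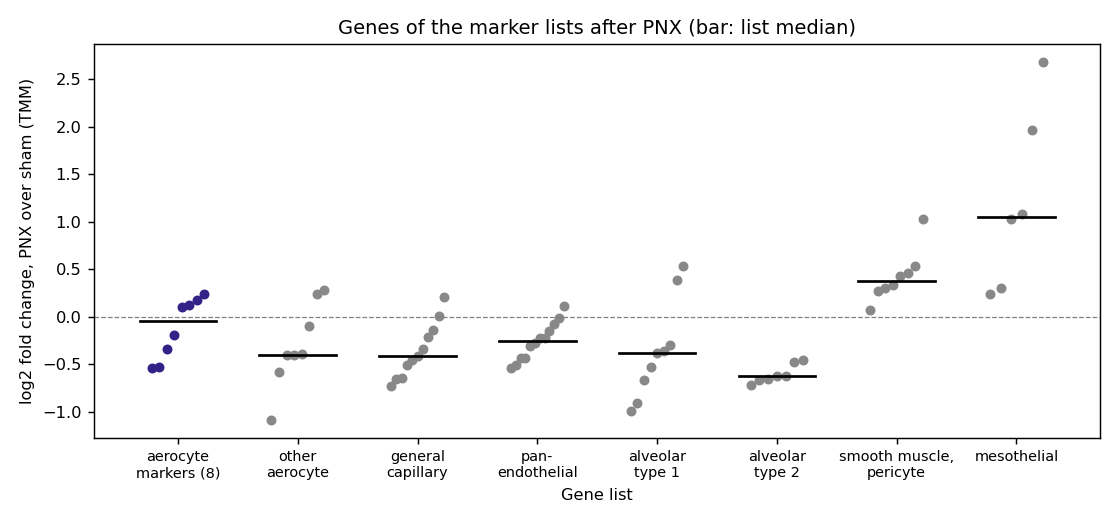
Log2 fold change (PNX over sham, TMM) of the genes of each marker list, 1 point per gene, with the list median as a bar. The 8 aerocyte markers spread around a median of -0.04, between -0.53 and 0.24, and alveolar type 2 genes lie wholly below 0 and mesothelial genes wholly above.

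Other cells of the fraction also changed. All 7 alveolar type 2 markers fell, with a median log2 fold change of -0.62 and a summed level that went from between 7094 and 7106 CPM to between 4563 and 4604 CPM. Tbx2 and Kitl are made by lung mesenchyme too. Of 8 fibroblast markers 6 rose and 1, Pdgfra, fell, with a summed level of 1334 to 1348 CPM in sham and 4880 to 4902 CPM in PNX libraries. Of 8 smooth muscle and pericyte markers 7 rose, and their sum went from between 552 and 562 to between 730 and 735 CPM. All 6 mesothelial markers, of which Wt1 is also in the fibroblast list, rose from a sum of at most 266 CPM to at least 526 CPM. Of Schwann cells, the classical source of periaxin, the defining marker Sox10 stood at 1.36 normalized counts in sham and 4.82 in PNX libraries. Mbp, which other cells also make, had 1813 in sham. The 5 proliferation genes, Mki67 and Top2a among them, all rose, with a median of 3.34. The 9 leukocyte markers had 5 higher and 3 lower genes, and their sum was between 1049 and 1057 CPM in sham and between 1219 and 1222 CPM in PNX libraries. The part of these cells in the changes of the members was not tested.

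The gene families of the members are counted here with the member itself included. Among 12 carbonic anhydrase genes tested, 7 were higher and 3 lower. Car4 was the highest of them per length. Car2, a cytosolic enzyme, had 3341 ± 131 normalized counts in sham and 3596 ± 5.77 in PNX libraries (SD, n = 2), and Car8 and Car14 fell with -0.55 and -0.26. Car3, an enzyme of muscle and fat, rose from 15.6 to 549 normalized counts. Of 8 T-box genes listed and tested, 3 rose (Tbx2, Tbx5 and Tbx18) and 1 fell. Tbx6, which was not in the list and was looked up after its value was seen, fell with a log2 fold change of -0.95. The listed gene that fell was Tbx3, the closest relative of Tbx2, with a log2 fold change of -0.33 and levels of 15079 ± 299 in sham and 12004 ± 253 in PNX libraries (SD, n = 2). Tbx4 and Tbx5, which shape the lung bud mesenchyme, had -0.03 and 0.27, and Tbx4 turned to 0.22 on the endothelial scale.

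In the family of Emp2, the relatives Emp1 and Emp3 rose with 0.91 and 0.93, opposite to Emp2, and Pmp22 had -0.09, or 0.16 on the endothelial scale. Cav1 and Cav2, the genes of the caveolins, fell with -0.27 and -0.61. Among the partners of periaxin, Dag1, which encodes dystroglycan, had 0.08, Utrn, which encodes utrophin, had -0.41, and Drp2, its partner in Schwann cells, was low with 15.7 normalized counts in sham. Of 12 carbohydrate sulfotransferase genes 5 rose and 3 fell. Chst15 and Chst11, which act on chondroitin sulfate, fell with -0.54 and -0.40, beside Chst1. Of 8 genes of the KIT pathway 2 rose and 5 fell, with Cbl, which marks receptors for breakdown, at -0.25.

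Promoter sequence was looked at because members moved in opposite directions. RefSeq sequences of GRCm38.p6 held an entry for 7 of the 8 members. The 250 bases before the start are shown for Car4 and Prx, which rose, and for Emp2, which fell, 5′ to 3′ on the strand of the gene, with the letters of the motifs searched in capitals. Car4 lies at chr11:84957504-84957753 (plus strand), Prx at chr7:27499074-27499323 (plus strand) and Emp2 at chr16:10313969-10314218 (minus strand).
Car4: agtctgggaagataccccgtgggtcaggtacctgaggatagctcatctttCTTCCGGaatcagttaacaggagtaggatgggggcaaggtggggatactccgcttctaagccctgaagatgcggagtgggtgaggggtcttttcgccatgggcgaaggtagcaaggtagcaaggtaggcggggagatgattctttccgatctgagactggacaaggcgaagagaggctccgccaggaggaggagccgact
Prx: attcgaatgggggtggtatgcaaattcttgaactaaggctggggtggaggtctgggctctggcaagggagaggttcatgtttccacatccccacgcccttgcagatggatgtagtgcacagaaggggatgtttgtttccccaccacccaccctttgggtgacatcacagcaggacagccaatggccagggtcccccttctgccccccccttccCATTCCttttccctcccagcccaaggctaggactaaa
Emp2: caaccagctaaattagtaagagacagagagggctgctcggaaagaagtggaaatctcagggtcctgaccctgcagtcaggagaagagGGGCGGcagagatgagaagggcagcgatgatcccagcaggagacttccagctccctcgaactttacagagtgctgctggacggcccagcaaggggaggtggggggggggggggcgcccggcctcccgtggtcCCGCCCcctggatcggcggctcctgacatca
The motifs, each searched on both strands, were GGAATG for the TEAD factors that work with YAP1, GGTGTGA for T-box factors, CCGGAAG for ETS factors, GGGCGG for SP and KLF factors and TATAAA. Matches of GGGCGG can overlap each other in a row. The capitals mark an ETS match 200 bases before the start in Car4, a TEAD match 37 bases before it in Prx, and SP/KLF matches 163 and 31 bases before it in Emp2. The TEAD letters were found in 3 of 7 member windows (Prx, Fibin and Chst1) and in 12.6% of all 32851 windows. The SP/KLF letters were in 3 of 7 (Emp2, Kitl and Rprml) and in 32.7% of all windows, the ETS letters in 2 of 7 (Car4 and Kitl) and in 6.91%, TATAAA in 1 of 7 (Kitl) and in 12.4%, and the T-box letters in 0 of 7 and in 3.33%. The starts behind the windows of Prx, Chst1 and Kitl lie inside the gene and are not its outermost, so 2 of the 3 TEAD matches rest on such windows. All of the Chst1 window and most of the Kitl window, with every match of Kitl, lie within the gene. None of the motifs was shared by all rising or by all falling members with a window. A match is a run of letters and not a shown binding site.

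The median course of the 8 members over the 4 libraries, centred on its mean in log2, was 0.054 and 0.00026 in sham and -0.040 and -0.0090 in PNX libraries, which is nearly flat. The genes closest to it by Euclidean distance, among 10375 genes with at least 500 normalized counts on average, were 6530402F18Rik, Dpysl2, Zc3h7a, Gata3 and Hibadh, at distances from 0.0057 to 0.016. Emp2 and Fibin lay at 0.477 and 0.482 from the course, further than 86.3% and 86.6% of the genes.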

How the data were processed

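RNA was measured in 4 libraries of CD31-selected mouse lung cells, 2 sham and 2 PNX. A kit that keeps strand and paired-end sequencing were used per the paper's methods, and the submitters' processing notes name STAR and mm10. The counting program is not given in the sources used here. The authors deposited whole-number counts per RefSeq transcript without normalization, and beside them the authors deposited FPKM and TPM. FPKM gave the transcript lengths, and both units were used to check the order of levels.

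Near-equal counts of overlapping transcripts, as in Prx, imply that a read was counted for each transcript that it overlaps. The transcript with the most counts therefore stood for a gene. Genes were filtered by filterByExpr, normalized by TMM and compared with the quasi-likelihood test of edgeR 4.0.16 in R 4.3.3, without covariates, with Benjamini-Hochberg adjustment over 16208 genes. A standard error is the log2 fold change over the square root of F. On simulated counts of these 16208 genes, 198 of 200 changed genes were recovered. In the data 9258 genes were called. Recovery with that many changed genes, or separately for changes as small as those of the members, was not tested.

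The members and lists were chosen with earlier results of these data known. Named genes are the members, genes of the lists and the 5 genes nearest to the median course of the members. Xist and Tbx6, which are in none of these sets, were named after their values were seen. Replicates are separate pools. Positions are those of RefSeq genes of GRCm38.p6, the assembly of mm10, and exon counts those of GENCODE M21. Protein sequences were not used here. Alternatives were other scalings, filters on low counts, sums over transcripts, DESeq2 1.42.0 with its Wald test, a block for the replicate number, and leaving out each library.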

Additional observations from a re-analysis of the deposited data

How the results depend on the processing

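Under 11 of the 12 alternatives all 8 members kept their direction and their side of the threshold. These were the size factors and the Wald test of DESeq2, no TMM, no filter, a filter at a mean of 50 counts, the replicate block, sums over transcripts and each library left out. Scaling to the pan-endothelial genes was the exception. It left 2 members lower, with Kitl reversed to 0.057 and Chst1 short of the threshold at -0.090. It moved Rprml past the threshold at 0.35 and gave 3 higher general capillary genes. Of the pan-endothelial genes 4 were higher and 5 lower, but these genes set the scale themselves, so a centre near 0 is built in. The median of the members was 0.20 on that scale, and between -0.082 and -0.006 when 1 library at a time was left out. The cause was not tested. The replicate numbers name pools of different mice, and deviations of equally numbered libraries correlated by 0.032 over 13235 genes, so they share only a number. With the replicate block 9441 genes were called in place of 9258, with 3 members higher and 4 lower as before. The Wald test of DESeq2 called fewer, 6772 genes. Its adjusted p was larger than that of edgeR for Kitl (5.2e-04) and Tbx2 (0.0012). It was smaller for Car4 (2.1e-21) and Emp2 (5.5e-162), so the size of the p-values depended on the method. The order of the members by level was the same with the deposited FPKM and TPM. Rprml, the lowest member, had the least precise value.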
